A study of Mus musculus with 4 samples.

Results

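The platelet-derived growth factor (PDGF) genes of mouse popliteal vessels were described here: 6 genes of the 32286 in the count tables, chosen by name as the 4 ligand genes Pdgfa, Pdgfb, Pdgfc and Pdgfd and the 2 receptor genes Pdgfra and Pdgfrb. The measurement was single-cell RNA-seq in droplets with 3' tagging, in which each captured RNA molecule carries a unique molecular identifier (UMI). There were 3 libraries: PLV replicates 1 and 2, each from popliteal lymphatic vessels (PLV) pooled from 2 mice, and a mixed library in which PLV cells and blood vessel (BV) cells from another pool of 2 mice were run together.

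The same strain gave every library: adult mice with an EGFP-Cre fusion knocked in at the Wt1 locus (WT1GFPCre), crossed to the Ai9-tdT reporter, in which Cre turns on tdTomato from the Rosa26 locus. No library came from mice without these alleles. All mice had K/X anaesthesia and Evans blue dye in the footpad before the vessels were exposed. The PLV libraries were digested for 30 min with collagenase I, Dispase II, DNAse and Liberase, and the mixed library for 60 min with collagenase I and Dispase II alone. The names of its 2 hashtag features are not paired with a vessel in the sources used here, so its cells were not split and the mixed library was used as 1 sample of both. It differs from the PLV libraries in vessel, in digestion, in its mice, in its run and in the version of the counting software Cell Ranger at once. After filtering, PLV replicate 1 held 1909 cells (9577642 UMIs), PLV replicate 2 held 516 (3390010 UMIs) and the mixed library 994 (7770796 UMIs), and no kept barcode was shared. Classes called muscle-like, fibroblast-like, pericyte-like, blood endothelial-like, lymphatic endothelial-like and Schwann-like were named from marker genes in all 3 libraries. The PDGF genes were kept out of both the clustering and the naming.

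PDGFs are secreted dimers that act on a pair of receptor tyrosine kinases, PDGFRα and PDGFRβ. PDGF-A and PDGF-C act mainly through PDGFRα, the receptor of fibroblasts and other mesenchymal cells, whereas PDGF-B and PDGF-D act through PDGFRβ, the receptor of mural cells (pericytes and vascular smooth muscle). In blood vessels, PDGF-B from endothelium recruits pericytes. PDGF-C and PDGF-D are secreted in a latent form, and proteases remove an inhibitory domain before they bind. Lymphatic collecting vessels such as the popliteal ones carry a coat of contractile lymphatic muscle.

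On mouse build GRCm38 (GENCODE M21), Pdgfa (ENSMUSG00000025856) lies at chr5:138976014-138997370 on the minus strand and Pdgfra (ENSMUSG00000029231) at chr5:75152292-75198215 on the plus strand. Pdgfb (ENSMUSG00000000489) lies at chr15:79995874-80014977 on the minus strand. Pdgfc (ENSMUSG00000028019), at chr3:81036416-81214040, and Pdgfd (ENSMUSG00000032006), at chr9:6168584-6378850, are on the plus strand. The identifier of Pdgfrb in the tables is ENSMUSG00000024620. The promoters of Pdgfc and Pdgfd are shown because these ligands had opposite levels in the kinds of muscle-like cells described further on. Each is RefSeq's GRCm38.p6 sequence from 250 bases before to 50 after the start in RefSeq's table, on the plus strand, at chr3:81036166-81036465 and chr9:6168236-6168535. For Pdgfd that start lies upstream of the GENCODE one given above, so its window ends before the latter. Capitals mark a CArG box, the motif of serum response factor in many smooth muscle genes.
Pdgfc: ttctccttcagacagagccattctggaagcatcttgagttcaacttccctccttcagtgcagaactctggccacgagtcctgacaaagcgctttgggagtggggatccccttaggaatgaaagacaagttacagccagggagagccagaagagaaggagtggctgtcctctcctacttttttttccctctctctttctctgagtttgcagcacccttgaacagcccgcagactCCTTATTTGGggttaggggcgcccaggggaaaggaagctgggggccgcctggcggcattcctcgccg
Pdgfd: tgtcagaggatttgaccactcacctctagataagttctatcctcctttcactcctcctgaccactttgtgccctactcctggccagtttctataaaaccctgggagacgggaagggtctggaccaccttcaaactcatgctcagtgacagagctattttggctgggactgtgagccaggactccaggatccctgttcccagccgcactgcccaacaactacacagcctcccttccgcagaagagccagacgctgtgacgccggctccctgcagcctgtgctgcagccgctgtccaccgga
The Pdgfc promoter held 1 CArG box, which begins 17 bases before the RefSeq start, and the Pdgfd promoter held none. Of 32851 promoters of this length, 1.63% held a CArG box on either strand. TATAA, searched on both strands, occurred in 24.9% of promoters and in the Pdgfd promoter once, 160 bases before the RefSeq start, but not in that of Pdgfc. The GC box GGGCGG, also searched on both strands, was in neither of these promoters and in 35.7% of all. Promoters of 4 of the 6 genes were searched, and those of Pdgfra and of Pdgfa (2 entries) held no CArG box. Those of Pdgfb and Pdgfrb were not searched. A match of letters is a description and not evidence of a bound site.

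The question of the first comparison was which cells carry each ligand and which carry its receptor. Levels are given as CPM, the UMIs of a gene per 1000000 UMIs of a class in a library, and mean ± SD is over the 3 libraries. Where 3 values follow one another, they stand for PLV replicate 1, then replicate 2, then the mixed library. Across the 15 pairs of the 6 classes, 56 of the 90 tests of the PDGF genes were called (62.2%), where 32.0% of the tests of all 10484 genes were (edgeR quasi-likelihood test with the library as a block, Benjamini-Hochberg adjusted p under 0.05 over all genes and pairs). The genes passed the filter on low counts through the classes in which they were high, so these counts describe the genes and support nothing further. Classes of 1 library share its mice and run, and intervals on single libraries are 95% exact intervals that cover counting error only.

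**Figure D1:**
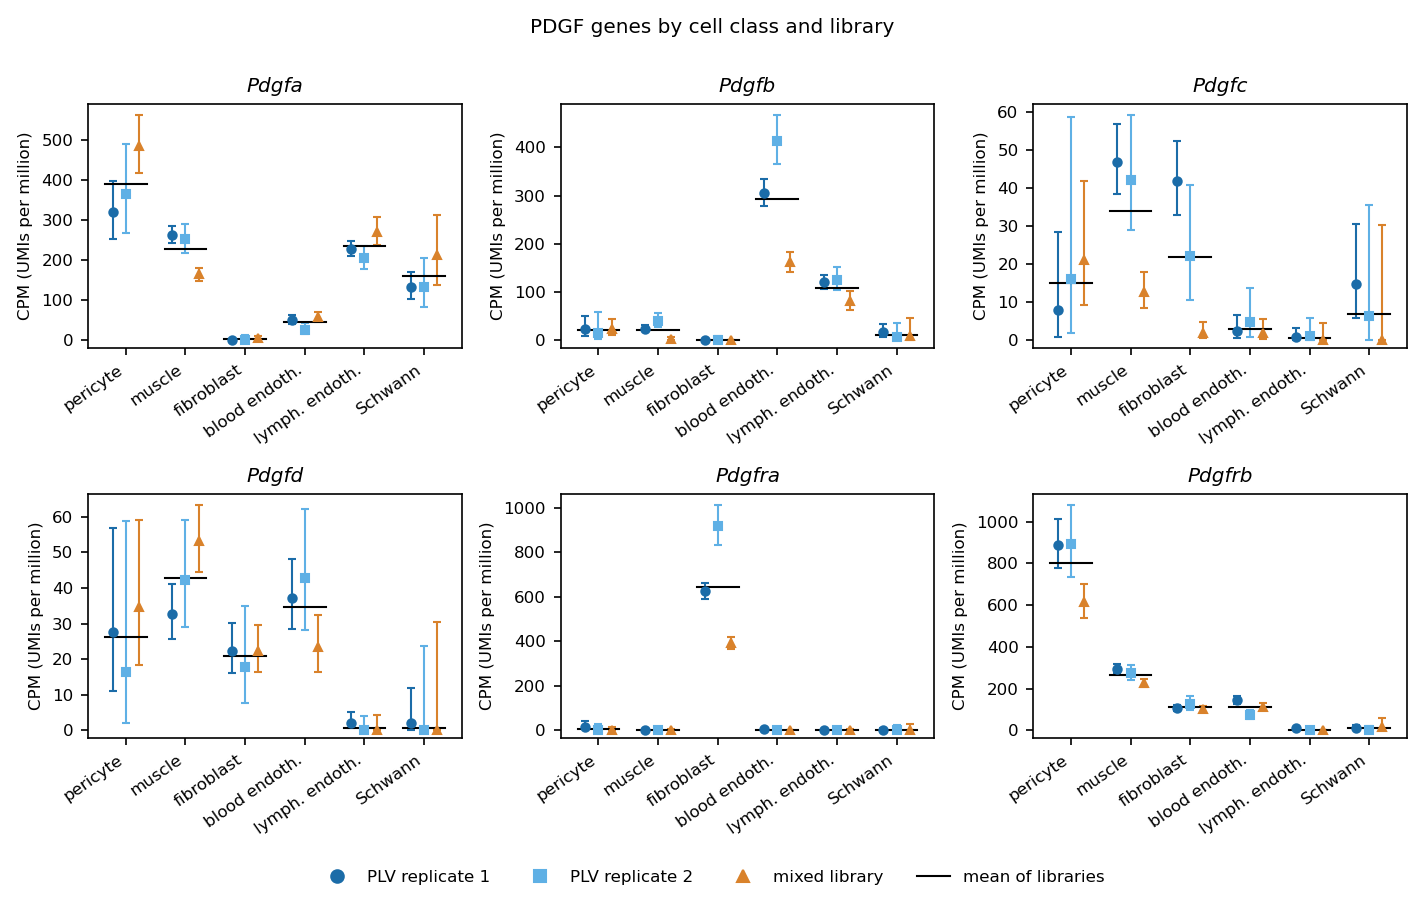
CPM of the 6 PDGF genes (y axis, a separate linear scale per gene) in 6 cell classes (x axis). Each point is a library, its bar the 95% exact Poisson interval, and the black line the mean of the 3 libraries; Pdgfra stands high in fibroblast-like cells alone, at 393 to 917 CPM, and Pdgfrb is highest in pericyte-like cells, at 617 to 895 CPM.

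Pdgfa encodes the A chain. Its UMIs came to 264, 253 and 165 CPM in muscle-like cells. Pericyte-like cells had 319.7, 366 and 486 CPM, and lymphatic endothelial-like cells 229, 205 and 272 CPM. Schwann-like cells, the glia of the nerves beside the vessels, had 133, 134 and 214 CPM. Blood endothelial-like cells were lower, at 51.5, 26.9 and 57.8 CPM, and fibroblast-like cells lowest, at 1.63, 2.22 and 7.09 CPM. The class means therefore ran from pericyte-like (391 ± 86.1 CPM) through lymphatic endothelial-like (235 ± 33.5), muscle-like (227 ± 54.3) and Schwann-like (160.4 ± 46.0) to blood endothelial-like (45.4 ± 16.3) and fibroblast-like (3.65 ± 3.0, n = 3 libraries each).

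Pericyte-like values lay above every lymphatic endothelial-like value, while the next neighbours overlapped, and no neighbouring pair among the first 4 classes was called. Muscle-like over Schwann-like cells (log2 ratio 0.72, edgeR adjusted p = 0.0770) changed its side of the threshold in 5 of 14 alternatives, among them that without the mixed library. Muscle-like and lymphatic endothelial-like cells differed by a log2 ratio of 0.04 ± 0.26 (SE, edgeR adjusted p = 0.95). Blood endothelial-like cells were below Schwann-like cells by a log2 ratio of 1.65 ± 0.33 (edgeR adjusted p = 0.000501) and above fibroblast-like cells by 3.16 ± 0.42 (edgeR adjusted p = 6.08e-06). Blood endothelial-like Pdgfa differed between clusters, and pericyte markers, at 5407 to 10540 CPM in pericyte-like cells, moved with it in part. In PLV replicate 1 it was 121 CPM in the Sema3g cluster beside 2182 CPM of summed pericyte markers, 44.2 CPM in the Gpihbp1 cluster beside 2206 CPM, and 10.2 CPM in the Selp cluster beside 818 CPM. In the mixed library it was 91.1 CPM in the Rbp7 cluster beside 1706 CPM, 29.4 CPM in the Aqp1 and Ackr1 cluster beside 352 CPM, and 1 UMI in the Cytl1 and Vwf cluster beside 4.15 CPM. The part of pericyte RNA in this level was not tested. Within endothelium Pdgfa was thus higher on the lymphatic side: blood endothelial-like over lymphatic endothelial-like gave a log2 ratio of -2.34 (edgeR adjusted p = 2.51e-06), and the lymphatic level was 4.45, 7.63 and 4.70 times the blood endothelial one. Of 1382, 495 and 948 Pdgfa UMIs in the kept cells, muscle-like cells held 42.8%, 40% and 42.8%, and lymphatic endothelial-like cells 37.8%, 38.8% and 23.7%. These shares depend on how many cells of each class were recovered. Unnamed cells of PLV replicate 1 held 25 Pdgfa UMIs and also 30 Pdgfrb UMIs. Of the Pdgfa UMIs, 5 (388 CPM) came from 9 cells, a cluster led by platelet genes such as Pf4 and Ppbp. The rest came from a cluster of 38 cells led by Ndufa4l2 and Rgs5, with Des also among its leading genes. It was in neither the pericyte-like nor the muscle-like class.

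Pdgfb encodes the B chain, the endothelial signal to mural cells. Blood endothelial-like cells had 306, 413 and 162 CPM, a mean of 294 ± 126 CPM. Lymphatic endothelial-like cells had 121, 126 and 80.9 CPM, a mean of 109 ± 24.9 CPM. The lowest blood endothelial value, from the mixed library, lay above the highest lymphatic one, and within each library the blood endothelial level was 2.53, 3.27 and 2.00 times the lymphatic one. The log2 ratio was 1.37 ± 0.29 (SE, edgeR adjusted p = 0.000934). Both endothelial classes were above muscle-like cells, the lymphatic one by a log2 ratio of 2.52 ± 0.34 (edgeR adjusted p = 6.78e-06).

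Muscle-like cells had 24.6, 39.6 and 3.25 CPM of Pdgfb and pericyte-like cells 23.7, 16.3 and 23.9 CPM, ranges that overlapped (muscle-like over pericyte-like, log2 ratio -0.25 ± 0.55, edgeR adjusted p = 0.787). Fibroblast-like cells held 1 Pdgfb UMI in PLV replicate 1 and 0 in the other libraries. Against the floor of 3 UMIs per library, blood endothelial-like cells were at least 62.1-fold higher than fibroblast-like cells in PLV replicate 2 and at least 114-fold higher in the mixed library. Blood endothelial-like cells held 56.6%, 60.7% and 74.1% of all Pdgfb UMIs and lymphatic endothelial-like cells 32.9%, 27.4% and 19.5%.

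**Figure D2:**
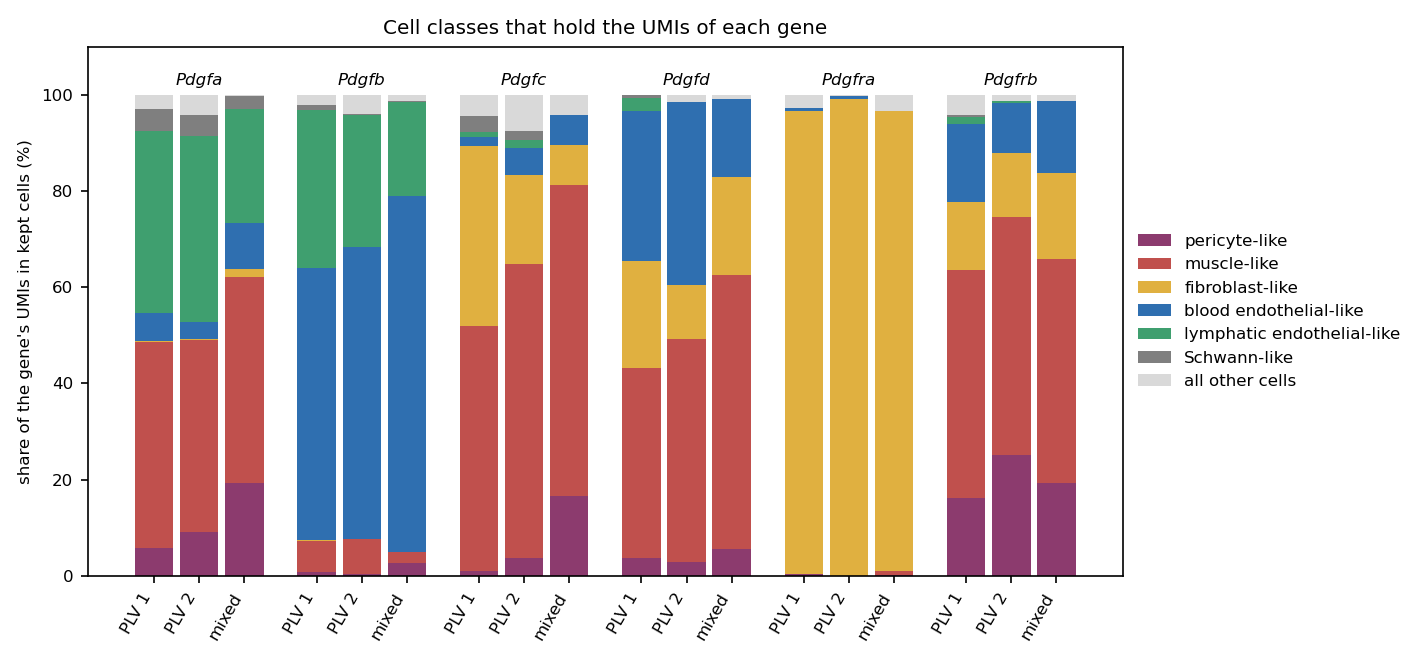
Share of each PDGF gene's UMIs (y axis, percent of its UMIs in all kept cells of a library) by cell class (colours), with 1 bar per library. Fibroblast-like cells held 95.7% to 99.3% of Pdgfra, both endothelial classes together most of Pdgfb, and muscle-like cells 51.0% to 64.6% of Pdgfc; the shares also follow the number of cells recovered per class.

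Pdgfb was uneven within blood endothelium. In PLV replicate 1 a cluster of 122 cells led by Gpihbp1 and Cd36, genes of capillary endothelium, had 386 CPM, and a cluster of 75 cells led by Sema3g, with the arterial gene Gja5, had 377 CPM. The remaining cluster of 101 cells, led by Selp, the P-selectin of venular endothelium, had 139 CPM. The mixed library showed 245 CPM in 100 cells led by Rbp7 and Cxcl12, 74.4 CPM in 41 cells led by Aqp1 and the venular gene Ackr1, and 62.2 CPM in 33 cells led by Cytl1 and Vwf. PLV replicate 2 had a single blood endothelial-like cluster of 64 cells, at 413 CPM. In both libraries with several clusters the Selp or Ackr1 cluster lay below the Gpihbp1 or Rbp7 cluster with no overlap of the counting intervals (108 to 176 CPM against 341 to 435 CPM in PLV replicate 1). Clusters of 1 library are not replicates, and no test was made between them.

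Pdgfc, an activator of PDGFRα, was a low-abundance transcript of muscle-like and fibroblast-like cells. Muscle-like cells had 47.0, 42.1 and 12.6 CPM. Fibroblast-like cells had 41.9, 22.2 and 1.89 CPM, and pericyte-like cells, from 2, 2 and 8 UMIs, 7.89, 16.3 and 21.3 CPM. In muscle-like and fibroblast-like cells the mixed library was lowest, and the ranges of the 3 classes overlapped. Muscle-like over fibroblast-like gave a log2 ratio of 0.59 ± 0.41 (SE, edgeR adjusted p = 0.315). Blood endothelial-like cells had 1.90 to 4.75 CPM, below every muscle-like value but not below the mixed-library fibroblast-like one, and lymphatic endothelial-like cells had 0 to 1.07 CPM. Muscle-like over blood endothelial-like cells gave a log2 ratio of 3.53 (edgeR adjusted p = 6.42e-05). Fibroblast-like over blood endothelial-like cells gave 2.94 (edgeR adjusted p = 0.000838), a call that was lost without PLV replicate 1 (1.5, adjusted p = 0.239). No neighbouring pair in the order of the 6 Pdgfc means was called with all 3 libraries. Without the mixed library fibroblast-like over pericyte-like cells passed the threshold (log2 ratio 2.04, edgeR adjusted p = 0.0152), and muscle-like over pericyte-like cells (0.99, edgeR adjusted p = 0.244) passed it there and in a finer clustering (Leiden resolution 2).

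Pdgfd, an activator of PDGFRβ, was spread over mural, fibroblast and blood endothelial cells and nearly absent from lymphatic endothelium. Muscle-like cells had 32.7, 42.1 and 53.3 CPM. Blood endothelial-like cells had 37.3, 42.7 and 23.5 CPM, pericyte-like cells 27.6, 16.3 and 34.6 CPM, and fibroblast-like cells 22.3, 17.7 and 22.2 CPM. Neighbours in the order of these 4 means overlapped and were not called, while every muscle-like and blood endothelial-like value lay above every fibroblast-like one. Muscle-like over fibroblast-like cells gave a log2 ratio of 0.75 (edgeR adjusted p = 0.0828), which passed the threshold with doublets kept and without the filter on low counts. Lymphatic endothelial-like cells held 5, 0 and 0 Pdgfd UMIs and Schwann-like cells 1, 0 and 0. Fibroblast-like over lymphatic endothelial-like cells gave a log2 ratio of 4.30 ± 0.55 (SE, edgeR adjusted p = 4.31e-06). Blood endothelial-like cells had 17.1 times the lymphatic endothelial level in PLV replicate 1 (counting interval 6.90 to 54.5), and were at least 13.3-fold higher in PLV replicate 2 and at least 6.49-fold higher in the mixed library, against the floor of 3 UMIs. Pdgfa and Pdgfd thus stood in opposite order in the 2 endothelial classes: Pdgfa was called higher in the lymphatic class, and Pdgfb and Pdgfd in the blood endothelial class.

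Among the 6 classes Pdgfra was high in 1. Fibroblast-like cells had 626, 917 and 393 CPM, a mean of 645 ± 263 CPM. Muscle-like cells had 0 UMIs in both PLV libraries, among 429 and 110 cells, and 8 UMIs (3.25 CPM) among 316 cells of the mixed library. Every fibroblast-like value was far above every muscle-like value. Against the floor of 3 UMIs, fibroblast-like cells were at least 466-fold higher in PLV replicate 1 and at least 240-fold higher in PLV replicate 2, and the ratio in the mixed library was 121 (counting interval 61.0 to 281). The log2 ratio fitted over the 3 libraries was 8.73, as muscle-like over fibroblast-like -8.73 (edgeR adjusted p = 2.98e-10); with both PLV muscle sums at 0, the size of this fitted value depends on the prior count.

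Pericyte-like cells held 4, 0 and 1 Pdgfra UMIs, blood endothelial-like cells 7, 2 and 0, lymphatic endothelial-like cells 1, 0 and 0 and Schwann-like cells 1, 0 and 0. No pair among these 4 classes and muscle-like cells was called for Pdgfra with all 3 libraries and the filter on low counts. Pericyte-like over lymphatic endothelial-like cells (log2 ratio 4.18, edgeR adjusted p = 0.0552) and blood over lymphatic endothelial-like cells (2.85, edgeR adjusted p = 0.136) each passed the threshold in 2 of 14 alternatives, with no filter on low counts and without the mixed library (lowest adjusted p = 0.00233 and 0.0187). The mixed library is also the one with all 8 muscle-like UMIs, and without it Pdgfra in muscle-like cells was called below pericyte-like (edgeR adjusted p = 0.00423) and blood endothelial-like cells (edgeR adjusted p = 0.00579). In PLV replicate 1, 15 cells called perineurial-like, after the sheath of nerve bundles, had 285 CPM from 30 UMIs, and 10 cells of the mixed library in an unnamed cluster led by Apod and Thbs4 had 490.3 CPM from 28 UMIs. Droplets of the mixed library without a cell (185412 droplets with fewer than 50 UMIs) give the makeup of the free RNA there, not the amount of it that a cell takes up: Pdgfra made up 48.0 CPM of it (interval 35.4 to 63.6). It also held 53.0 CPM of Pdgfa, 21.0 CPM of Pdgfb, 4.00 CPM of Pdgfc, 11 CPM of Pdgfd and 52.0 CPM of Pdgfrb. In the classes of that library with the least of these genes, fibroblast-like cells had 7.09 CPM of Pdgfa and 0 Pdgfb UMIs, and blood endothelial-like cells 0 Pdgfra UMIs, all below the droplets. The 57.8 CPM of Pdgfa in blood endothelial-like cells and the 23.9 CPM of Pdgfb in pericyte-like cells (9 UMIs) lay above those of fibroblast-like cells, with counting intervals that do not overlap. Both levels also lay within the intervals of the droplets, 39.7 to 69.3 CPM for Pdgfa and 13.0 to 32.1 CPM for Pdgfb. The part of free RNA in these levels and in the 8 Pdgfra UMIs of muscle-like cells was not tested. The deposited PLV matrices hold called cells only, so free RNA was not measured for them.

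The kinds of muscle-like clusters and the subsets of fibroblast-like clusters were sorted by pairs of genes. Muscle-like clusters went to a kind high in Pln and Sorbs2, a kind high in Ano1 and Hmcn2, or a kind high in P2rx1 and Col12a1, found in the mixed library alone. Pln encodes phospholamban, which restrains the calcium pump of the sarcoplasmic reticulum, and Ano1 the calcium-activated chloride channel of lymphatic pacemaking. Fibroblast-like clusters went to a Cxcl14 and Scara5 subset in all 3 libraries, a Pi16 and Dpp4 subset in PLV replicate 1, and a Col4a4 and Itgbl1 subset in the mixed library. The highest score decided, a pair's mean log2 level less its mean over all fibroblast-like clusters. The 73 Cxcl14 and Scara5 cells of PLV replicate 2 scored 1.34, beside 0.91 for Pi16 and Dpp4. In the mixed library 41 of 139 such cells scored 0.94, beside 0.66 for Col4a4 and Itgbl1 and 0.42 for Pi16 and Dpp4. Their 10 leading genes held Pi16 but neither Cxcl14 nor Scara5. Values of this subset may thus pool cells of other subsets. Clusters led by Apod and Smoc2 in PLV replicate 1 (41 cells) and PLV replicate 2 (14 cells) matched no pair.

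Pdgfra in the Cxcl14 and Scara5 subset was 835, 852 and 332 CPM. The Pi16 and Dpp4 subset had 450.3 CPM and the Col4a4 and Itgbl1 subset 465 CPM. The Apod and Smoc2 clusters had the highest levels, 1615 CPM in PLV replicate 1 and 1566 CPM in PLV replicate 2. Of the muscle kinds, the Pln and Sorbs2 kind had 0, 0 and 6 Pdgfra UMIs (19.2 CPM in the mixed library) and the Ano1 and Hmcn2 kind 0, 0 and 2 (1.51 CPM). The 74 cells of the P2rx1 and Col12a1 kind had 0. No muscle kind reached the level of any fibroblast subset in any library. Pdgfra was called higher in the subset in 9 of 9 contrasts of 3 subsets with 3 kinds (edgeR quasi-likelihood test, adjusted over all genes and contrasts), where 15% of all tests were called higher in the subset; 5 of these contrasts exist only through the mixed library, and without it the count was 4 of 4. In 7 of the 9 contrasts an arm is a single library, assumed to vary like the groups with more, and in 2 of them both arms are, so that neither has a replicate: Pi16 and Dpp4 over P2rx1 and Col12a1, in different libraries, and Col4a4 and Itgbl1 over P2rx1 and Col12a1, both in the mixed library. With DESeq2 the 3 contrasts of the Col4a4 and Itgbl1 subset, found in 1 library, were not called. The narrowest gap was to the Pln and Sorbs2 kind of the mixed library, which lay 17.3-fold below the Cxcl14 and Scara5 subset (counting interval 7.87 to 47.4) and 24.2-fold below the Col4a4 and Itgbl1 subset (11 to 66.2).

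**Figure D3:**
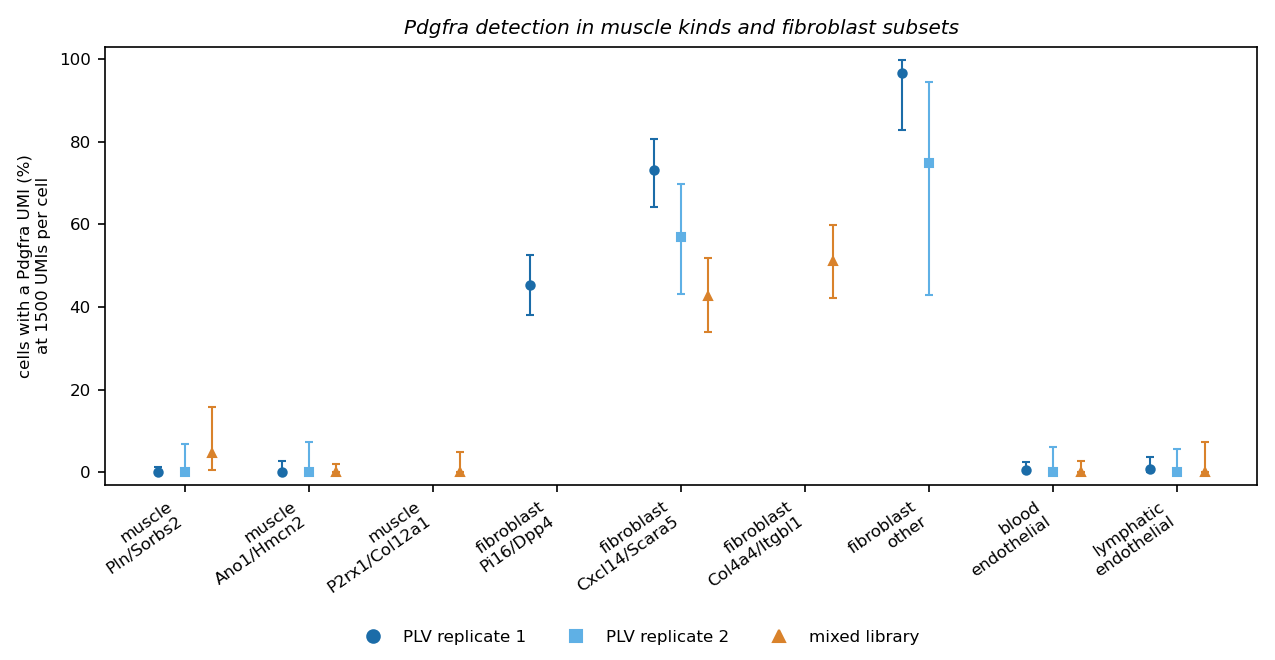
Share of cells with at least 1 Pdgfra UMI (y axis, percent, after thinning each cell to 1500 UMIs) in the kinds of muscle-like cells, the subsets of fibroblast-like cells and the 2 endothelial classes (x axis). Points are libraries with 95% Clopper-Pearson intervals; fibroblast subsets lie between 42.7% and 96.7% and muscle kinds between 0% and 4.65%.

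Shares of cells with a Pdgfra UMI were compared at 1500 UMIs per cell, since cells of different depth do not have the same chance of showing one. Muscle-like cells had 0 of 418, 0 of 102 and 2 of 307 (0.651%). At this depth a count of 0 (the floor of 3 over the number of cells) allows a share of cells with a UMI of up to 1.06% of 283 Pln and Sorbs2 cells and 2.22% of 135 Ano1 and Hmcn2 cells in PLV replicate 1, which is no limit on cells that express the gene. Both positive cells of the mixed library were in the Pln and Sorbs2 kind, 2 of 43 cells (4.65%, Clopper-Pearson interval 0.568 to 15.8). Fibroblast-like cells had 202 of 339 (59.6%), 42 of 70 (60.0%) and 120 of 255 (47.1%). Within them the share was 73.1%, 56.9% and 42.7% in the Cxcl14 and Scara5 subset, 45.3% in the Pi16 and Dpp4 subset, 51.1% in the Col4a4 and Itgbl1 subset, and 29 of 30 and 9 of 12 cells in the Apod and Smoc2 clusters. Blood endothelial-like cells, which should lack the gene, had 1 of 225, 0 of 58 and 0 of 136, and lymphatic endothelial-like cells 1 of 148, 0 of 65 and 0 of 48. The positive endothelial cells were thus in PLV replicate 1, where muscle-like cells had none, and the positive muscle-like cells in the mixed library, where endothelial cells had none. Before thinning, the median depth was 4712 to 7484.5 UMIs in muscle-like cells, 4057 to 6914 in fibroblast-like and 3758 to 9271.5 in blood endothelial-like cells. Without thinning the shares were 0%, 0% and 1.58% in muscle-like cells and 81.9%, 77.0% and 80.5% in fibroblast-like cells.

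Markers of fibroblasts moved with the muscle kinds. The summed level of 8 fibroblast markers was 2885 to 5469 CPM in the Ano1 and Hmcn2 kind, with all 8 detected in each library, and 458 to 2458 CPM in the Pln and Sorbs2 kind, with 5 to 8 detected. It was 38955 to 118867 CPM in fibroblast-like cells. In the Pln and Sorbs2 kind the mixed library, the one with Pdgfra UMIs, had the 2458 CPM, against 575 CPM and 458 CPM in the PLV libraries. The part of fibroblast RNA in those 6 UMIs was not tested. In the Ano1 and Hmcn2 kind of the PLV libraries, Pdgfra stood at 0 beside 3458 CPM and 2885 CPM of fibroblast markers. That kind of the mixed library had 2 Pdgfra UMIs (1.51 CPM) beside 5469 CPM, and the part of fibroblast RNA in them was not tested either.

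Of the 6 classes, pericyte-like and muscle-like cells had the highest Pdgfrb levels, though the gene was not confined to them. Outside the 6 classes, perineurial-like cells of PLV replicate 1 had 190 CPM from 20 UMIs, and cells called mast-like had 163 CPM from 6 UMIs. Pericyte-like cells had 888, 895 and 617 CPM, a mean of 800.0 ± 159 CPM. Muscle-like cells had 296, 276 and 227 CPM, a mean of 266 ± 35.4 CPM. The groups did not overlap, and the pericyte-like level was 3.0, 3.25 and 2.72 times the muscle-like one in these libraries. The log2 ratio of pericyte-like over muscle-like cells was 1.37 ± 0.30 (SE, edgeR adjusted p = 0.00112). Fibroblast-like cells had 108, 129 and 101 CPM, below every muscle-like value, with muscle-like over fibroblast-like cells at a log2 ratio of 1.00 ± 0.30 (edgeR adjusted p = 0.0134). That call was lost without PLV replicate 1 (log2 ratio 0.87, adjusted p = 0.0623), without PLV replicate 2 (1.06, adjusted p = 0.0693), without the library block (1.00, adjusted p = 0.0599) and with DESeq2 (0.97, adjusted p = 0.0737). Lymphatic endothelial-like cells held 22, 2 and 0 Pdgfrb UMIs (0 to 9.63 CPM) and Schwann-like cells 6, 0 and 2. Muscle-like cells, being more numerous, held 47.4%, 49.4% and 46.6% of all Pdgfrb UMIs, and pericyte-like cells 16.1%, 25.2% and 19.4%.

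The pericyte-like cells also carried muscle and fibroblast markers. Their 8 pericyte markers summed to 5407 to 10540 CPM, all detected in each library, beside 7568 to 12045 CPM of 8 muscle markers and 2197 to 4303 CPM of 8 fibroblast markers. Muscle-like cells had 948 to 2038 CPM of the pericyte markers. In PLV replicate 1 the pericyte-like cells were found by splitting again a cluster of 134 cells that a first pass had named from keratinocyte genes. That step was added after the clusters were seen. With the first clusters alone PLV replicate 1 had no pericyte-like cells, so that setting cannot check the step. There the pericyte-like cells came from PLV replicate 2 and the mixed library only. The log2 ratio of muscle-like over pericyte-like cells for Pdgfrb was then -1.42 (edgeR adjusted p = 0.00405).

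Blood endothelial-like cells had 145, 72.8 and 112 CPM of Pdgfrb. These lay above, below and within the 101 to 129 CPM of fibroblast-like cells (fibroblast-like over blood endothelial-like, log2 ratio 0.31 ± 0.31, edgeR adjusted p = 0.496). The blood endothelial level differed widely between clusters and pericyte markers moved with it. In PLV replicate 1 the Gpihbp1 cluster had 187 CPM of Pdgfrb beside 2206 CPM of summed pericyte markers, the Sema3g cluster 162 CPM beside 2182 CPM, and the Selp cluster 71.6 CPM beside 818 CPM. The cluster of PLV replicate 2 had 72.8 CPM beside 788 CPM. In the mixed library the Rbp7 cluster had 202 CPM beside 1706 CPM, the Aqp1 and Ackr1 cluster 21.5 CPM beside 352 CPM, and the Cytl1 and Vwf cluster 0 beside 4.15 CPM. Summed muscle markers ran from 224 to 2784 CPM in these clusters. The part of pericyte RNA in the blood endothelial Pdgfrb level was not tested. Pdgfrb was higher in pericyte-like than in blood endothelial-like cells, by a log2 ratio of 2.69 (edgeR adjusted p = 1.20e-06).

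**Figure D4:**
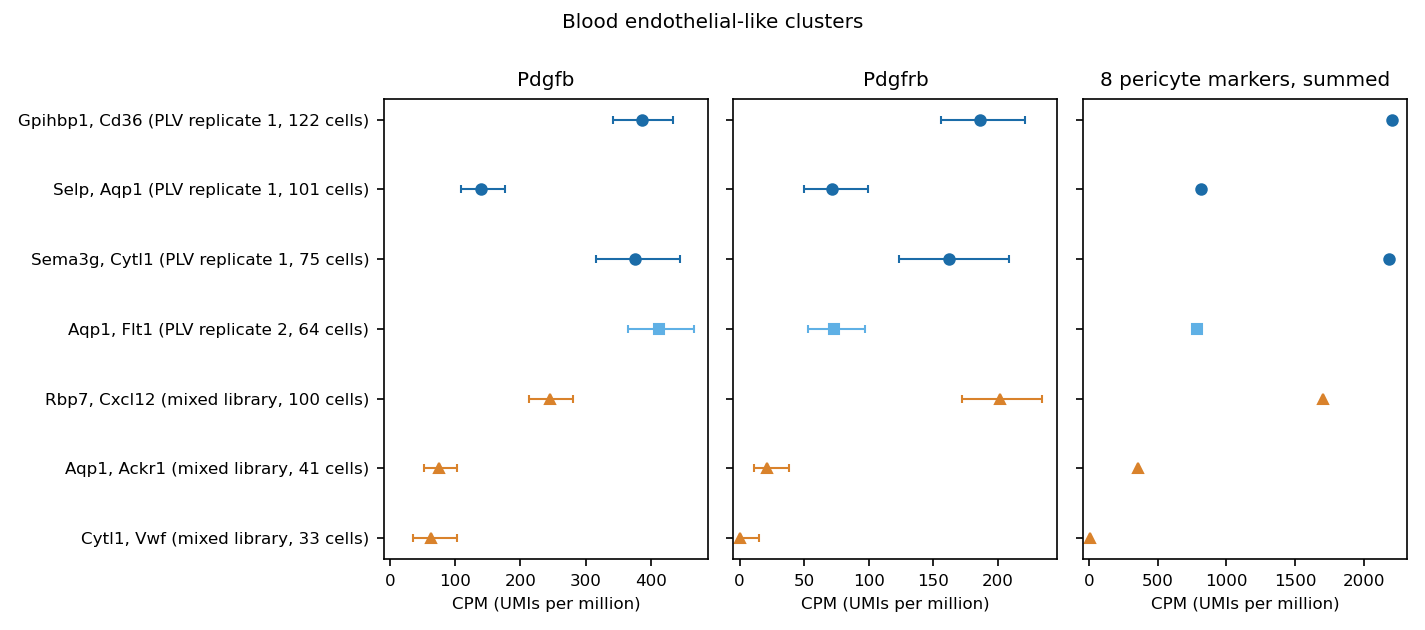
CPM (x axes, linear) of Pdgfb, of Pdgfrb and of 8 pericyte markers summed, in each blood endothelial-like cluster (y axis, named by its leading genes, library and cell number). Bars are 95% exact Poisson intervals; the clusters with the most Pdgfrb, 162 to 202 CPM, are those with 1706 to 2206 CPM of pericyte markers.

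Outside fibroblast-like cells both receptors were seen together in 2 cells of the 6 classes, each pericyte-like and from PLV replicate 1. At 1500 UMIs per cell, 41 of 202, 5 of 42 and 13 of 120 Pdgfra-positive fibroblast-like cells also had a Pdgfrb UMI. The shares were 20.3%, 11.9% and 10.8%, against 15.3%, 17.9% and 19.3% of the fibroblast-like cells without a Pdgfra UMI, so the difference had no common direction over the libraries. In muscle-like cells 34.7%, 36.3% and 30.0% had a Pdgfrb UMI, and 0 cells had both.

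The muscle kinds differed in their ligands. The Pln and Sorbs2 kind had 64.6, 67.3 and 54.5 CPM of Pdgfc. The Ano1 and Hmcn2 kind had 9.73, 6.2 and 3.03 CPM. The kinds did not overlap, and the Pdgfc ratio within a library was 6.64 (counting interval 3.11 to 17.0), 10.8 (2.76 to 93.5) and 18.0 (5.87 to 73.5). Pdgfd had the opposite order, with 75.1, 86.9 and 67.4 CPM in the Ano1 and Hmcn2 kind and 12.5, 10.8 and 12.8 CPM in the Pln and Sorbs2 kind. The Pdgfd ratio of the Ano1 and Hmcn2 kind over the other was 5.99 (3.49 to 10.7), 8.01 (3.05 to 26.6) and 5.26 (1.98 to 19.7). In the fit of kinds and subsets, Pln and Sorbs2 over Ano1 and Hmcn2 gave a log2 ratio of 3.43 ± 0.46 for Pdgfc (SE, edgeR adjusted p = 6.01e-06) and -2.39 ± 0.31 for Pdgfd (edgeR adjusted p = 4.17e-06). This contrast was chosen after the levels were seen, and 4 of the 6 genes were called in it, where 22.7% of 10469 genes were.

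Pdgfb and Pdgfa made up the other calls. The Pln and Sorbs2 kind held 53, 31 and 3 Pdgfb UMIs (35, 67.3 and 9.61 CPM) and the Ano1 and Hmcn2 kind 2, 0 and 0. The Pdgfb ratio was 12.6 in PLV replicate 1 (counting interval 3.31 to 107) and at least 7.23 in PLV replicate 2 against the floor of 3 UMIs (edgeR adjusted p = 4.46e-05). Both kinds of the mixed library were at or under that floor. Pdgfa was 307, 284 and 256 CPM in the Pln and Sorbs2 kind and 175, 208 and 157 CPM in the Ano1 and Hmcn2 kind, without overlap. Its log2 ratio was 0.84 ± 0.19 (SE, edgeR adjusted p = 0.00204), and without PLV replicate 1 it was 0.77 with an adjusted p of 0.0814. Pdgfrb had similar levels in both, 282, 267 and 192 CPM in the Pln and Sorbs2 kind and 324, 289 and 263 CPM in the Ano1 and Hmcn2 kind. Within a library the Ano1 and Hmcn2 kind was higher in 3 of 3, at 1.15, 1.08 and 1.37 times the other. Across libraries the ranges overlapped, and the fitted log2 ratio of Pln and Sorbs2 over Ano1 and Hmcn2 was -0.08 ± 0.18 (SE, edgeR adjusted p = 0.820). The P2rx1 and Col12a1 kind of the mixed library had 143 CPM of Pdgfa, 12.1 CPM of Pdgfc, 46.0 CPM of Pdgfd and 183 CPM of Pdgfrb, each nearer to the Ano1 and Hmcn2 kind of that library than to the Pln and Sorbs2 kind except Pdgfrb. Its 5 Pdgfb UMIs (6.05 CPM) were also nearer to the Pln and Sorbs2 kind (9.61 CPM from 3 UMIs) than to the Ano1 and Hmcn2 kind (0 UMIs). The fibroblast markers given above moved with the muscle kinds. Pdgfc and Pdgfd were 1.77 and 8.84 CPM, 24.4 and 19.5 CPM, and 3.47 and 15.6 CPM in the Cxcl14 and Scara5 fibroblasts. They were 64.3 and 30.5 CPM in the Pi16 and Dpp4 fibroblasts of PLV replicate 1. The Col4a4 and Itgbl1 fibroblasts of the mixed library had 0 and 30.1 CPM.

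**Figure D5:**
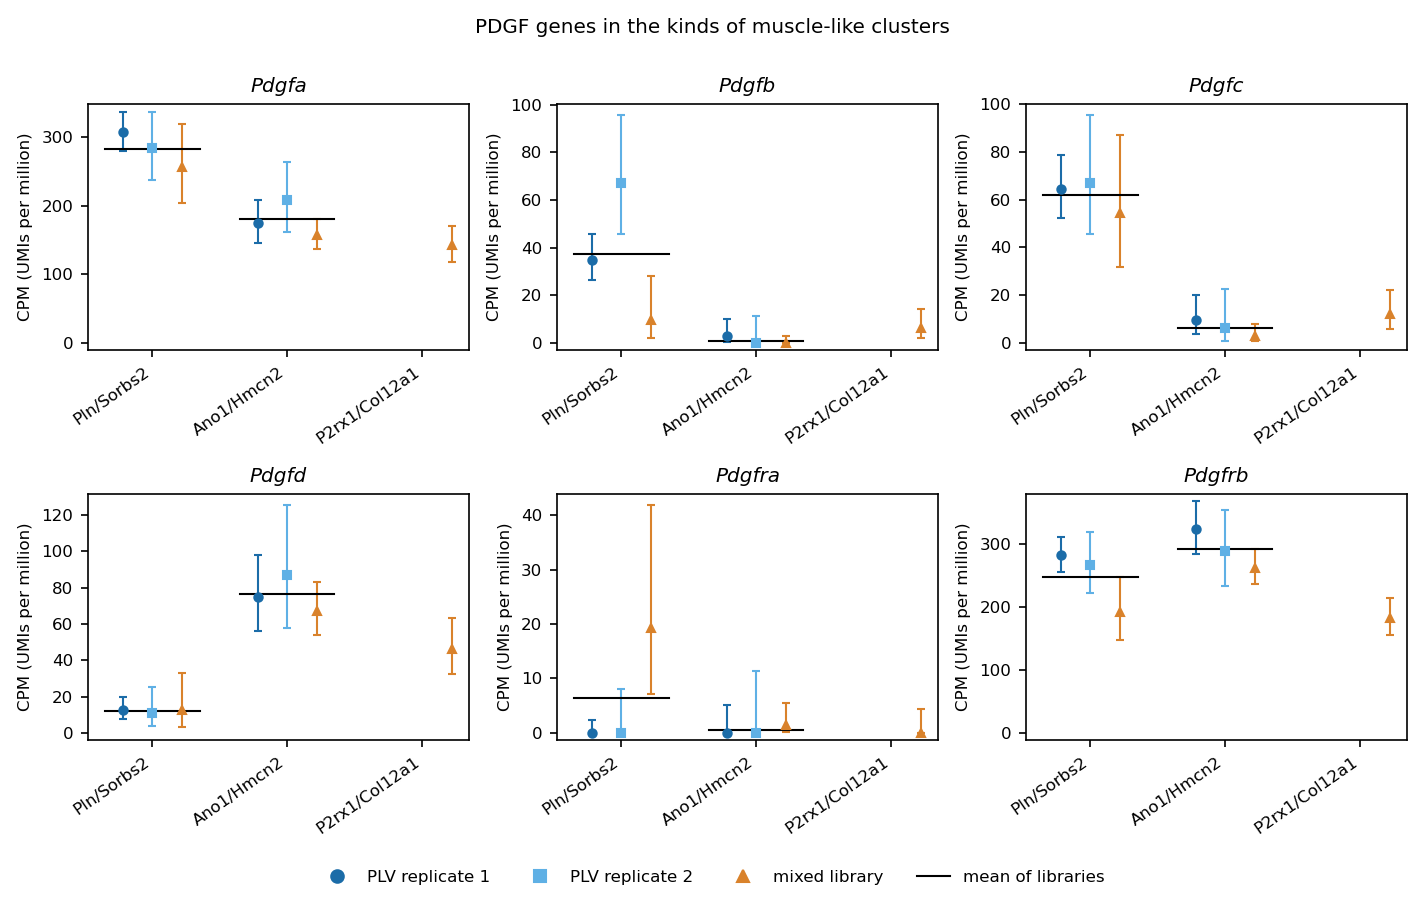
CPM of the 6 PDGF genes (y axis, a separate linear scale per gene) in the 3 kinds of muscle-like clusters (x axis). Points are libraries with 95% exact Poisson intervals and the black line is the mean where more than 1 library holds the kind; Pdgfc is at 54.5 to 67.3 CPM in the Pln/Sorbs2 kind and 3.03 to 9.73 CPM in the Ano1/Hmcn2 kind, and Pdgfd lies the other way round.

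Pdgfc was also uneven among the fibroblast subsets. The Pi16 and Dpp4 subset of PLV replicate 1 had 64.3 CPM from 76 UMIs, while the Col4a4 and Itgbl1 subset had 0 and both Apod and Smoc2 clusters had 0 UMIs at a depth that allows up to 33.2 CPM in PLV replicate 1 and 72.3 CPM in PLV replicate 2. Their Pdgfd levels were 30.5 CPM in the Pi16 and Dpp4 subset, 30.1 CPM in the Col4a4 and Itgbl1 subset and 0 UMIs, with the same limits, in the Apod and Smoc2 clusters, so a difference of these clusters from the subsets in Pdgfd was not detectable at this depth. These subsets are in 1 or 2 libraries each, so no test was made between them.

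PLV and the mixed library were compared within each class. Of 19 member-by-class tests that passed the filter, 4 were called (21.1%), where 7.42% of all tests were (edgeR quasi-likelihood test), 17.3% in muscle-like and 11.8% in fibroblast-like cells. The lone mixed sum is assumed to vary like the PLV sums. In muscle-like cells of the mixed library Pdgfc was lower, by a log2 ratio of -1.60 (edgeR adjusted p = 2.11e-05), and Pdgfb was lower, by -2.94 (edgeR adjusted p = 4.74e-08), while Pdgfd was higher, by 0.80 (edgeR adjusted p = 0.0201). The Pln and Sorbs2 kind made up 67.4% and 48.2% of muscle-like cells in the PLV libraries and 13.6% in the mixed library, and the part of these shares in the calls was not tested. Within that kind Pdgfc was 64.6, 67.3 and 54.5 CPM, Pdgfd 12.5, 10.8 and 12.8 CPM, and Pdgfb 35, 67.3 and 9.61 CPM, lowest in the mixed library. In fibroblast-like cells Pdgfc was lower in the mixed library, by a log2 ratio of -3.58. Clusters were sorted to the Pi16 and Dpp4 subset in PLV replicate 1 alone. However, clusters of the other libraries sorted to the Cxcl14 and Scara5 subset also scored above the mean for Pi16 and Dpp4. These were the 73 cells of PLV replicate 2 (24.4 CPM of Pdgfc) and a mixed-library cluster of 41 cells with Pi16 among its leading genes (4.14 CPM of Pdgfc). With DESeq2 the count of calls was 1 of 19, where 433 of 49896 tests were called: Pdgfb in muscle-like cells stayed (DESeq2 adjusted p = 0.0393), and Pdgfc in muscle-like cells (0.331), Pdgfc in fibroblast-like cells (0.133) and Pdgfd in muscle-like cells (close to 1) were lost. Receptor levels were not called where they were tested, Pdgfra in fibroblast-like cells and Pdgfrb in 4 classes: Pdgfra in fibroblast-like cells gave -0.44 (edgeR adjusted p = 0.517) and Pdgfrb in pericyte-like cells -0.32 (edgeR adjusted p = 0.716). Vessel, digestion, run, mice and the version of Cell Ranger cannot be told apart in this comparison.

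Of the other genes of the pathway, 49 in 4 lists were followed. Over the 15 class pairs 326 of 660 tests of them were called (49.4%), beside the 32.0% over all genes. The list of proteins that process or bind PDGFs had 8 of 10 genes tested; in muscle-like against fibroblast-like cells 7 were called higher in fibroblast-like and 1 in muscle-like cells, with a median log2 ratio of -2.62, where the median over all genes was -0.03. In this pair 38.0% of all genes were called, 16.9% higher in muscle-like and 21.1% in fibroblast-like cells. Plau, the urokinase that cleaves latent PDGF-D, had 216, 144 and 12.3 CPM in fibroblast-like and 4.47, 1.28 and 2.85 CPM in muscle-like cells (log2 ratio -4.93, edgeR adjusted p = 5.05e-07). Pcsk5, a proprotein convertase, had 75.7, 51.0 and 61.0 CPM against 4.47, 3.83 and 7.32 CPM (log2 ratio -3.75, edgeR adjusted p = 4.50e-08). Of 19 genes of receptor-proximal signalling, 4 were called higher in fibroblast-like and 2 in muscle-like cells, the lowest p belonging to the kinase gene Fyn (log2 ratio -3.19) and the adaptor gene Nck1 (-2.07). Of 12 tested off-switches, 3 were called higher in fibroblast-like cells and 1 in muscle-like cells, led by the ubiquitin ligase gene Cblb (-2.28) and the phosphatase gene Dusp6 (-3.26). Among 5 tested relatives of the PDGF receptors and their ligands, Csf1 was higher in fibroblast-like cells (-2.59), and Kit, a receptor of the same class, had 21.5, 42.1 and 15.9 CPM in muscle-like cells and 0 UMIs in fibroblast-like cells.

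Pericyte-like cells had more of several feedback genes than muscle-like cells. Of 12 off-switches 5 were called higher in pericyte-like and 0 in muscle-like cells, with a median log2 ratio of muscle-like over pericyte-like cells of -0.82 against 0.06 over all genes, of which 15.9% were called (9.03% higher in muscle-like and 6.87% in pericyte-like cells). Against blood endothelial-like cells, which had less Pdgfrb than muscle-like cells, 6 of the 12 were called lower in muscle-like cells and 0 higher (median log2 ratio -0.72, where 19.4% of all genes were called lower in muscle-like cells and 19.8% higher). Pericyte-like against blood endothelial-like cells gave 3 in each direction, where 12.0% of all genes were called higher in pericyte-like and 13.7% in blood endothelial-like cells. Spry4, a Sprouty inhibitor of Ras signalling, had 182, 163 and 141 CPM in pericyte-like and 7.61, 6.38 and 4.88 CPM in muscle-like cells (log2 ratio -4.44, edgeR adjusted p = 3.11e-08). Dusp6 had 63.2, 73.2 and 39.9 CPM against 4.47, 0 and 2.44 CPM (log2 ratio -3.97, edgeR adjusted p = 3.74e-06). In the other lists the lowest p in this pair belonged to Nrp1, a co-receptor (-2.33), Pcsk5 (-2.47), the PI3-kinase subunit gene Pik3r1 (-1.17), Il34 (-2.09) and Kitl (-0.97), each higher in pericyte-like cells.

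Between the endothelial classes 23.0% of all genes were called, 12.5% higher in the blood and 10.4% in the lymphatic class. Nrp1 had 485, 630.0 and 426 CPM in blood endothelial-like cells and 3.06, 0 and 0 CPM in lymphatic endothelial-like cells (edgeR adjusted p = 1.40e-09). Of 12 off-switches 4 were called higher in blood endothelial-like and 1 in lymphatic endothelial-like cells, with Spry1 at 119.6, 127 and 57.1 CPM against 17.5, 12.8 and 6.03 CPM (log2 ratio 2.91, edgeR adjusted p = 1.49e-07) and Spry4 at a log2 ratio of 4.33. Plaur, the urokinase receptor, was higher on the lymphatic side, by a log2 ratio of -2.66 for blood over lymphatic endothelial-like cells. Pik3r1 (1.63) and Kitl (3.70) were higher in blood endothelial-like cells and the adaptor gene Shc1 (-1.78) in lymphatic endothelial-like cells, and Il34 had 27.7, 12.7 and 27.3 CPM against 0.875, 0 and 0 CPM.

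The genes most alike to each PDGF gene were ranked by Pearson's r of log2(CPM + 1) over the 18 class sums, among 9417 genes with a mean of at least 10 CPM. The sums share 3 libraries and 6 classes and are not independent. Pdgfra was most alike to Ifi205 (r = 0.983), Dpep1 (0.970) and Smoc2 (0.964). Pdgfrb followed Abcc9 (0.95), Pcdh19 (0.940) and Vstm4 (0.935). Pdgfd was most alike to Abcc9 as well (0.941), then Il1r1 (0.937) and Shox2 (0.930). Pdgfa was nearest to Chn1 (0.938), Pkig (0.936) and Gtf2a2 (0.923), and Pdgfb to 4931406P16Rik (0.910), Ier5l (0.903) and Msn (0.903). Pdgfc, with the fewest UMIs, had the lowest values, for Mrgprf (0.888), Acadsb (0.878) and Axin2 (0.876). Abcc9 was among the pericyte markers used to name cells.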

How the data were processed

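UMI counts per gene and barcode were deposited by the authors as raw integer matrices. These matrices name Cell Ranger 6.1.2 for the PLV libraries and version 4 for the mixed library. The build was GRCm38, per the submitters' processing notes. Every mapped column was used. Kept barcodes had 500 UMIs and 300 genes or more, and no more than 15% mitochondrial or 20% haemoglobin UMIs. Scrublet calls (10, 3 and 3) were removed. Of 2649, 730 and 896360 deposited barcodes, 1909, 516 and 994 stayed. Clusters were found within each library in scanpy 1.11.5 (2000 variable genes, 50 components, 15 neighbours, Leiden resolution 1), without the PDGF and pathway genes, and a cluster was named from at least 3 markers. The haemoglobin limit, a second round of clustering where under 50% of cells held a marker, and the rule leaving a cluster with no positive score outside the kinds were added after clusters were seen.

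UMIs were summed per class or kind and library. Sums of at least 20 cells were tested with edgeR 4.0.16 in R 4.3.3 (TMM, filterByExpr, quasi-likelihood, library as block), and p-values were adjusted by Benjamini-Hochberg over all genes and contrasts at 0.05. DESeq2 1.42.0 was an alternative. The scripts were tested on simulated data. Intervals are exact (95%, scipy 1.17.1), and the floor for a count of 0 is 3 UMIs. The block is the library, since classes of 1 library come from the same mice, and same-numbered PLV and mixed libraries come from different mice. No label says that the PLV pools were processed on separate days, so p-values measure the spread between these libraries. The PDGF genes and all lists were chosen with earlier results of these data known. The text names all 6 PDGF genes, up to 2 called pathway genes per list and pair with the lowest p, and the 3 genes most alike to each PDGF gene. Of the pathway genes so picked, 1 is not reported here.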

Additional observations from a re-analysis of the deposited data

How the results depend on the processing

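Alternatives covered filters, doublets, clustering, DESeq2, low counts, the replicate block, thinning and each library left out. Without the replicate block the PDGF calls between classes numbered 52 and the pathway calls 273, against 56 and 326, and the call for Pdgfrb of muscle-like over fibroblast-like cells was among those lost. Leaving out each library gave 51 to 64 PDGF calls, 250 to 319 pathway calls, 3 to 4 calls between kinds, and 4 to 9 calls of Pdgfra in subsets over kinds; the 4 came without the mixed library, where 4 contrasts exist. It gave log2 ratios of 7.99 to 12.58 for Pdgfra in fibroblast-like over muscle-like cells, 1.29 to 1.45 for Pdgfrb in pericyte-like over muscle-like cells, and 1.17 to 1.53 for Pdgfb in blood over lymphatic endothelial-like cells, each past the threshold. DESeq2 left 1 of 4 calls between PLV and the mixed library, and the cause was not tested. Between those, leaving out a PLV library left 1 against 1 and was not tested.

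The mean share of fibroblast-like cells with a Pdgfra UMI followed depth by construction: 42.2% at 1000 UMIs, 73.9% at 3000 and 79.8% unthinned. Uncalled differences were less stable: over class pairs and alternatives 421 stayed uncalled in the same direction, 22 passed the threshold and 33 changed sign. Pdgfc in fibroblast-like over pericyte-like cells was -0.18 at Leiden resolution 0.5, -0.63 with the first clusters and -1.25 to 2.04 with a library left out. The first clusters held no pericyte-like cells of PLV replicate 1. Pdgfb in muscle-like over pericyte-like cells was 0.36 at resolution 2 and -0.83 to 0.66 with a library left out. Pdgfra in muscle-like cells rests on 8 UMIs: over pericyte-like cells it was 0.18 at the minimum of 1000 UMIs, 0.0999 at resolution 0.5 and -6.16 to 0.39 with a library left out, and over blood endothelial-like cells -5.03 to 1.32. Pdgfa in muscle-like over lymphatic endothelial-like cells was -0.014 at a minimum of 1000 UMIs, -0.038 at a limit of 10% mitochondrial UMIs, -0.017 without the block, and -0.11 to 0.26 with a library left out, below 0 without either PLV library. Pdgfrb between the kinds was 0.076 at Leiden resolution 2 and -0.12 to 0.030 with a library left out, above 0 without the mixed library. Of called values of single PDGF genes between classes, 766 stayed called in the same direction over the alternatives and 18 fell short of the threshold. Low UMI numbers limit Pdgfc, Pdgfd and the mural level of Pdgfb.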
